A study of Rattus norvegicus with 35 samples.

Results

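The collagen gene family was followed in the mammary gland of female Sprague-Dawley rats at postnatal day 21, that is, at weaning. Members were all array probes whose gene name, once a suffix for predicted or mapped models was removed, read Col, a number, a and a number. This rule took 52 probes for 32 genes out of 41012 probes on the array. All 32 gene names are listed in RefSeq's rat gene table. The rule used names only, but the family was chosen with earlier results of these data known.

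Total RNA came from the left abdominal gland of offspring of dams that had been gavaged with bisphenol A (BPA), an oestrogenic plastic monomer, from gestational day 10 to 21. Group BPA25 received 25 and group BPA250 received 250 µg of BPA per kg body weight and day. Both doses were also given with genistein, a soy isoflavone, in the dams' chow (250 mg per kg chow, about 5.5 mg per kg body weight and day), or with indole-3-carbinol (I3C), a breakdown product of cabbage glucosinolates (2000 mg per kg chow, about 45 mg per kg body weight and day). The unexposed dams' offspring, labelled negative control, received neither compound nor BPA. There were 7 groups of 5 arrays, 1 sample per array, and no group had genistein or I3C without BPA. The offspring came from different litters, but no label ties an array to a litter, so p-values measure the spread between these samples.

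Collagens are extracellular proteins of 3 chains wound into a triple helix, a fold whose repeating unit is a glycine followed by any pair of residues. Fibrillar collagens (types I, II, III, V, XI and XXVII here) are secreted as procollagens, trimmed, and packed into the fibres that give a tissue its strength. Type IV collagen forms the network of basement membranes, type VI forms beaded filaments around cells, and the fibril-associated (FACIT), multiplexin, anchoring, short-chain and transmembrane classes link these networks to each other or to cells. In the mammary gland, fibroblasts and adipocytes of the fat pad make most of the fibrillar and type VI collagen, and the growing ducts are wrapped in a type IV basement membrane.

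Probe sequences show what the array read, and the sets below were chosen because they bear on how far single members can be told apart. The first 3 are 60-base probes that carry the triple-helix code itself. Capitals mark codons GGN, which encode glycine, spaced 3 codons apart in the best frame.
Col9a1: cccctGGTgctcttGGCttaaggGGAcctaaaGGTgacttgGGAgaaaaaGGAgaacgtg
Col4a5: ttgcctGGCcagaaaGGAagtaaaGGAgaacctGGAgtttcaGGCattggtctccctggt
Col9a3: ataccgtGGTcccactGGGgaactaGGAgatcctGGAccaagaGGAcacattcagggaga
The Col9a1 probe A_44_P311515 (rn3 build, chr9:22978230-22984184, plus strand) kept the pattern at 6 of 6 positions. Its genomic span of 5955 bases is longer than the probe, so it joins exons. The Col4a5 probe A_44_P304800 (chrX:37012452-37012511, minus strand) and the Col9a3 probe A_44_P262798 (chr3:169613584-169613964, plus strand) kept it at 5 of 6. Of the 52 collagen probes, 1 kept it over its full length, against 5 of all 41012 probes, so most members are read outside an unbroken run of glycine codons.

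The next 3 probes read the fibrillar chains Col1a1, Col3a1 and Col5a2. Capitals mark, in each, the longest run shared with another of the 3.
Col1a1: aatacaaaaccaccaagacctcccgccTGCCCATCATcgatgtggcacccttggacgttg
Col3a1: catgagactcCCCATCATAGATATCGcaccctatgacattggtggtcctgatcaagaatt
Col5a2: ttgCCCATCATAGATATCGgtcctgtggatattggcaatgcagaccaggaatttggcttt
The Col3a1 probe A_44_P146518 (rn3 chr9:44318879-44318938, plus strand) and the Col5a2 probe A_44_P392849 (chr9:44376974-44377033, minus strand) shared 16 bases in a row, and the Col1a1 probe A_44_P419137 (chr10:83652273-83652332, plus strand) shared 10. Between different genes, 16 was the longest shared run among the 52 probes, reached here and by a Col2a1 and a Col4a5 probe. Neighbouring probes of 1 gene overlapped more: the Col5a2 pair A_44_P392845 and A_44_P392846 and the Col12a1 pair A_44_P473152 and A_44_P473153 shared 40 bases, and the Col18a1 pair A_44_P1004323 and A_44_P1004324 shared 37. Such pairs are not independent readings of their gene.

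Values below are log2 of the scanner's processed signal minus the array's 75th percentile of it, called centred values. A value above 0 is brighter than the array's 75th percentile. Brightness depends on the probe, so centred values were compared between arrays and never between genes. A probe was counted as detected where the scanner software flagged it as well above background. It was tested if detected on at least 4 of 5 arrays of at least 1 group, with at most 5 values lost to outlier flags.

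The arrays sat on 10 slides, and detection differed between slides. On the 4 arrays of slide 3 (replicate 2 of control, BPA25, BPA250 and BPA25+genistein), 93.5% to 96.5% of all probes were detected. The 6 arrays of slides 4 and 5 reached 65.5% to 72.6%, and the other 25 arrays 32.5% to 50.6%. Slide alone held a median 78.1% of a tested collagen probe's variance, against 65.0% over all tested probes. Group alone held 10.9%, against 12.9% over all tested probes. Scan day alone held 48.9%. Of the tested fibroblast markers 6 of 8 were detected on all 35 arrays, the other two on 32 (Fbln1) and 17 (Pi16), and of the adipocyte markers 8 of 8. The 7 tested luminal epithelial markers were each detected on 24 to 34 arrays, the 5 basal ones on 25 to 32 and the 9 endothelial ones on 17 to 35. Testing itself required detection. Among markers that failed the filter, luminal Elf5 was detected on 9 arrays and Wap on 1, and basal Krt17 on 11. Some markers of each of these cell types were thus detected in the labelled tissue. In whole tissue, fewer cells of a type and less RNA per cell cannot be told apart.

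**Figure D1:**
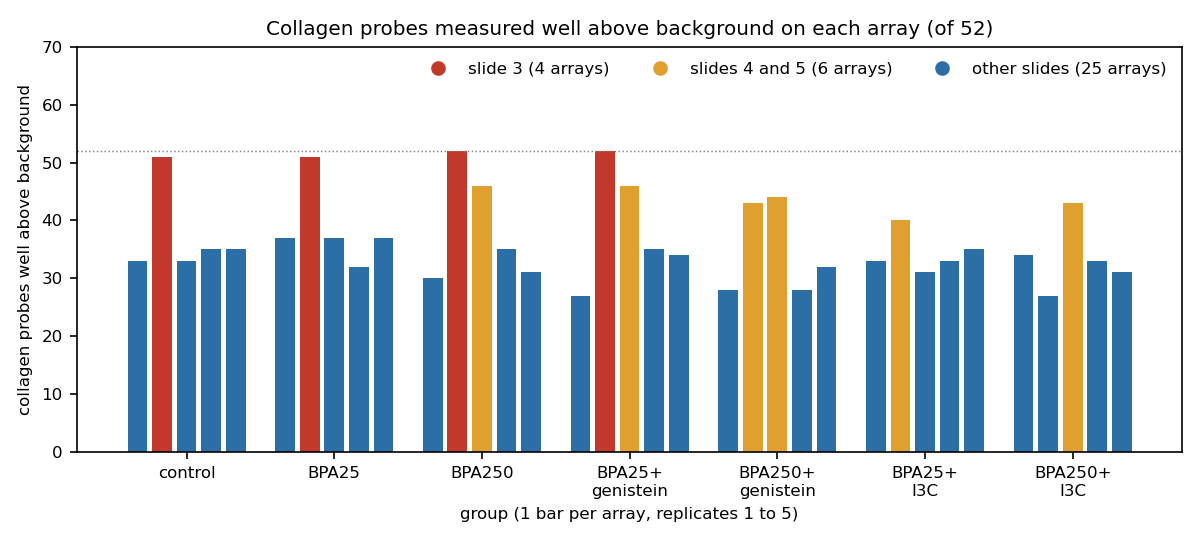
Number of the 52 collagen probes flagged well above background (vertical axis) on each of 35 arrays, in order of replicate within the 7 groups, coloured by slide. Slide 3 arrays reached 51 or 52 probes, slides 4 and 5 reached 40 to 46, and the other 25 arrays 27 to 37 in every group.

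Most of the classes that build the stroma were detected throughout. On all 35 arrays 26 probes for 17 genes were detected: 12 of 20 fibrillar probes (6 of 10 genes), 4 of 6 type IV probes (Col4a1, Col4a2 and Col4a5), all 3 type VI probes, all 3 multiplexin probes and 4 of 12 FACIT probes. The filter was passed by 35 probes for 24 genes, and 17 probes failed. Passing members include 15 fibrillar, 8 FACIT and 4 type IV probes, the type VI and multiplexin probes, Col7a1 (the anchoring fibril collagen) and Col8a1, a short-chain collagen of vessel walls.

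The dim members were seen where the whole array was bright. Of 52 probes, 9 were detected on slides 3 to 5 and on none of the other 25 arrays, among them Col8a2, both Col9a3 probes and Col17a1, the transmembrane collagen of hemidesmosomes. Col17a1 was detected on 4 of 35 arrays, the 4 of slide 3, where all groups represented gave a signal. Col10a1, the collagen of hypertrophic cartilage, was detected by its brighter probe on all 10 arrays of slides 3 to 5 and on 1 of the other 25. Col22a1 and Col4a4 were each detected on the same 10 arrays and on 3 of the other 25. The 3 transmembrane probes (Col17a1 and 2 for Col23a1) all failed the filter. Each group had 1 or 2 arrays on slides 3 to 5, so the groups cannot be compared for these genes.

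**Figure D2:**
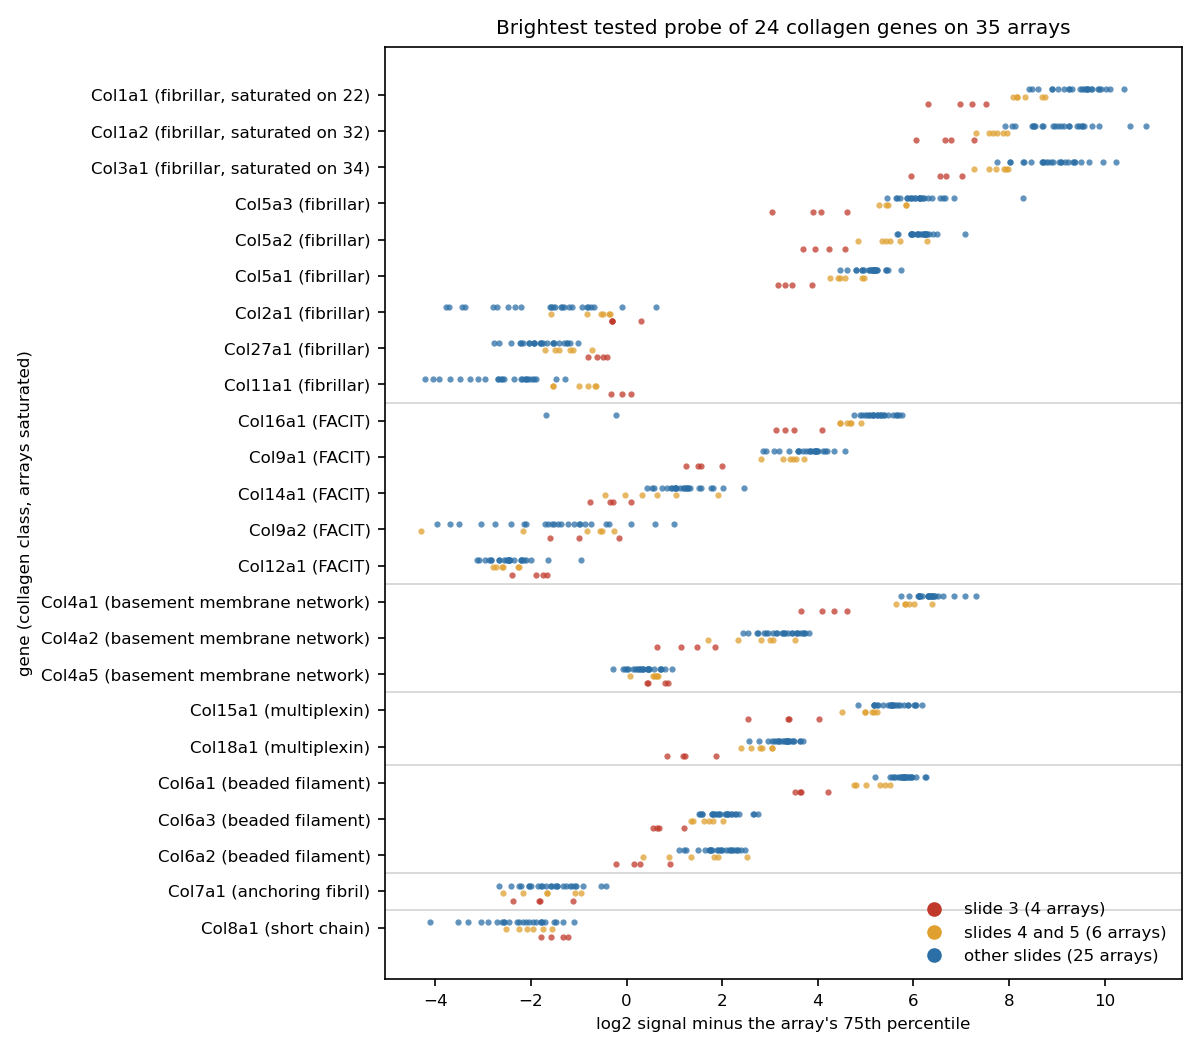
Centred log2 value (horizontal axis) of the brightest tested probe of 24 collagen genes (rows, by class) on 35 arrays, 1 point per array, coloured by slide. On slide 3 the bright genes lie lower and several dim genes higher than on the other slides; positions along the axis are not comparable between genes.

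Type I and type III collagen, the bulk of connective tissue fibres, were at the scanner's ceiling. Col3a1 was saturated on 34 of 35 arrays. The brightest Col1a2 probe, A_43_P12783, was saturated on 32, and the Col1a1 probes A_44_P238421 and A_44_P350521 on 22 and 19. Another Col1a1 probe, A_44_P419137, was never saturated, and the other Col1a2 probe, A_44_P458851, was saturated on 1 array. A saturated spot has a fixed signal, so its centred value is set by the array's own percentile: over the 35 arrays the centred Col3a1 value followed log2 of that percentile with r = -0.99, and the saturated Col1a1 and Col1a2 probes with r from -0.98 to -0.88. For the unsaturated Col1a1, Col4a1, Col6a1 and Col15a1 probes r ran from -0.79 to -0.68. These are descriptions of 35 arrays, with no test.

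Read by its unsaturated probe, Col1a1 was high in every group. Control replicates 1, 3, 4 and 5 gave 8.41, 7.82, 8.36 and 7.51, and replicate 2 was lost to an outlier flag. BPA25 gave 8.21, 5.55, 7.01, 7.68 and 7.45, and BPA250 gave 7.54, 5.24, 7.37, 7.83 and 8.04. BPA25+genistein gave 6.67, 4.43, 6.67, 7.07 and 7.21. All 5 BPA25+genistein arrays were below all 4 control arrays, but that contrast was not among those tested. The share of all probes separated in this way is not given, and control lacked its slide 3 array here. By the Col1a1 probe A_44_P350521 that control array gave 6.68, within the 5.87 to 8.42 of BPA25+genistein. At the unsaturated probe, the slide 3 array was the lowest of its group in each of the 3 exposed groups that had one. BPA250+genistein gave 7.87, 6.95, 6.90, 8.57 and 6.68. BPA25+I3C gave 7.63, 7.27, 7.98, 7.26 and 7.81, and BPA250+I3C gave 7.53, 7.68, 6.70, 7.81 and 8.23. Those 3 groups overlapped with each other and with the control. In limma's F test over the 7 groups Col1a1 had an unadjusted p of 0.148 and an adjusted p of 1. The differences from control were -0.84 ± 0.54 (SE) for BPA25 and -0.82 ± 0.54 for BPA250, but control had lost its slide 3 array and those groups had not. Without slide 3 in any group they were -0.44 ± 0.35 and -0.33 ± 0.35. BPA25+genistein differed from BPA25 by -0.77 ± 0.51, and no test of these passed.

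Type V collagen, which nucleates type I fibrils and limits their width, was detected on all arrays by all 6 of its probes for Col5a1, Col5a2 and Col5a3. Col5a1 (A_44_P196079) gave 5.48, 3.31, 5.20, 5.23 and 5.19 in control, 5.74, 3.87, 5.21, 5.18 and 5.43 in BPA25, and 4.81, 3.45, 4.97, 5.10 and 5.42 in BPA250. It gave 4.92, 3.16, 4.92, 4.46 and 4.80 in BPA25+genistein. Outside slide 3, the 4 BPA25+genistein arrays lay below the 4 BPA25 arrays and below the 4 control arrays. This split was made after the values were seen, and the share of all probes that separated in this way is not given. The other groups gave 5.19, 4.25, 4.46, 5.23 and 4.62 (BPA250+genistein), 5.15, 4.57, 5.14, 5.14 and 5.16 (BPA25+I3C) and 4.96, 5.06, 4.42, 5.08 and 4.93 (BPA250+I3C). The lowest array of both I3C groups was on slide 4. Over all 35 arrays the difference of BPA25+genistein from BPA25 was -0.64 ± 0.39 (limma, unadjusted p 0.115, adjusted p 1). Col5a2, by its brightest probe, ranged in group means from 5.68 to 6.02 and Col5a3 from 5.36 to 6.26, each with a pooled within-group SD of 0.80 and 1.03.

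Cartilage-type fibrillar collagens were near the detection limit. Col2a1 was detected on 22 arrays, Col27a1 on 30, and Col11a1 by its brightest probe, A_44_P385697, on 21. Col11a1 gave -3.10, 0.09, -0.80, -2.35 and -2.20 in BPA250 and -3.68, -4.23, -1.54, -3.92 and -3.27 in BPA250+I3C. It was detected on 4 of 5 arrays of the first group and 1 of 5 of the second, whose single detected array was on slide 4. The groups overlapped. Control gave -1.89, -0.09, -2.63, -2.68 and -1.95, BPA25 gave -2.13, -0.32, -1.97, -2.57 and -1.28, and BPA25+I3C gave -2.03, -1.002, -4.04, -2.61 and -2.96. BPA250+genistein gave -1.47, -0.67, -0.63, -2.21 and -3.47, and the 4 BPA25+genistein values left after an outlier flag were -2.08, -1.53, -2.10 and -2.70. BPA250+I3C thus held the lowest single value, and slide 3 arrays the highest.

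The type IV basement membrane chains Col4a1 and Col4a2 assemble together, and their genes lie head to head. In RefSeq's GRCr8 build the start of Col4a1 (plus strand) and that of Col4a2 (minus strand) are separated by 76 bases on chromosome 16, and their tabled promoter windows, 250 bases before to 50 after each start, overlap by 176 bases. The stretch between the starts is shown because it is upstream of both genes. Capitals mark the match to the GC box GGGCGG, searched with its reverse complement CCGCCC on both strands.
Col4a1-Col4a2, chr16:84885521-84885596: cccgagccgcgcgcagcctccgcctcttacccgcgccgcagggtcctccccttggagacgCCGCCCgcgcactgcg
It holds 1 GC box and no CCAAT box (CCAAT or its reverse complement ATTGG). Of 33469 promoters, 18.1% hold the GC box in the same 76 bases before the start and 13.0% the CCAAT box. Its GC content is 78.9%, against a median of 53.9% in the same window of all promoters. Matches describe letters, not sites. Of the 32 member genes 24 have a promoter in that table.

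Col4a1 (A_44_P1021644) gave 6.37, 4.10, 6.36, 6.32 and 6.30 in control, 6.11, 4.60, 6.09, 6.42 and 6.31 in BPA25, and 6.30, 4.35, 5.82, 5.91 and 6.38 in BPA250. Apart from slide 3, control arrays lay between 6.30 and 6.37. BPA25+genistein gave 6.14, 3.66, 5.63, 7.31 and 6.33, the widest spread, with its lowest value on slide 3 and its highest in replicate 4. BPA250+genistein gave 6.52, 5.81, 6.38, 7.07 and 6.19, BPA25+I3C gave 6.11, 5.91, 6.84, 5.74 and 6.62, and BPA250+I3C gave 6.12, 6.38, 6.02, 6.42 and 6.44. Group means of Col4a1 ran from 5.75 to 6.40, with a pooled SD of 0.80. Those of Col4a2 ran from 2.67 ± 1.17 (SD, n = 5) in BPA25+genistein to 3.18 ± 0.76 (n = 5) in BPA25. Col4a5, a chain of specialised basement membranes on the X chromosome, was among the steadiest members: group means of its probe A_44_P105448 ran from 0.16 to 0.58 with a pooled SD of 0.27. Its second probe, A_44_P304800, shown above for its glycine codons, was detected on 8 arrays, all on slides 3 to 5.

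The multiplexins Col15a1 and Col18a1 sit at basement membranes and carry the precursors of restin and endostatin. Col15a1 (A_44_P208699) gave 5.17, 3.40, 5.67, 5.55 and 5.26 in control and 5.79, 4.03, 6.01, 6.06 and 5.54 in BPA25. BPA250 gave 5.18, 3.37, 4.98, 5.57 and 5.71, and BPA25+genistein gave 5.89, 2.54, 5.23, 5.60 and 5.23. On each of the 4 slides that held both a control and a BPA25 array (1, 3, 7 and 9) the BPA25 array was higher. This was not among the planned tests, and the share of all probes higher on all 4 slides is not given. Of the collagen probes, 16 of 35, 24 of 33, 17 of 34 and 23 of 35 were higher on these slides. BPA250+genistein gave 5.53, 4.51, 4.99, 5.18 and 4.83, BPA25+I3C gave 5.55, 5.17, 5.51, 5.37 and 5.63, and BPA250+I3C gave 5.47, 6.17, 5.13, 6.03 and 5.88. No comparison of Col15a1 passed: BPA25 minus control was 0.48 ± 0.49 (limma, adjusted p 1), and BPA250+I3C minus BPA250 was 0.77 ± 0.49, or 0.37 ± 0.23 without slide 3. Col18a1 ranged in group means from 2.70 to 3.30.

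For type VI collagen, the microfilament collagen abundant around adipocytes, no test passed. Group means of Col6a1 ran from 5.32 to 5.62 with a pooled SD of 0.78 (limma's F test, adjusted p 1). Col6a2 ran from 1.31 ± 0.91 (SD, n = 5) in BPA25+genistein to 2.05 ± 0.65 in BPA25, and Col6a3 from 1.55 ± 0.21 in BPA250+genistein to 2.07 ± 0.54 in BPA25.

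Among the FACIT collagens, which decorate the surface of fibrils, Col14a1 was detected on all arrays, and group means of its brighter probe ran from 0.87 to 1.03. Col12a1 was near the detection limit, detected on 22 arrays, with group means from -2.60 to -2.12. Col9a1, a cartilage FACIT, was read by 2 probes that did not follow each other. A_44_P311515, the glycine-codon probe shown above, was detected on all 35 arrays, and A_43_P16279 on 31. Their correlation over 35 arrays was 0.25, and on deviations from slide means -0.16.

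Col16a1, another FACIT collagen, was also read by 2 probes, and they disagreed on 2 arrays. Probe A_43_P16491 (rn3 chromosome 5, plus strand) gave 5.31, 3.30, 4.89, -1.68 and 5.10 in BPA25+genistein and 4.76, 4.46, 4.60, -0.22 and 4.92 in BPA250+genistein. Replicate 4 of each was not above background, and neither spot carried an outlier flag. The lowest of the other 33 arrays was 3.12, on slide 3. The second probe, A_44_P457362, gave 0.60, -0.997, -0.02, 1.10 and 0.49 and -0.45, -0.44, -0.73, 1.32 and -0.03 in the same groups, so the 2 replicates were the highest of their groups there. In the authors' deposited table the first probe also stood at 6.23 and 7.21 on those arrays, against 12.0 to 13.0 on the other 33. Replicate 4 of BPA25+genistein lay on slide 7 and replicate 4 of BPA250+genistein on slide 8. The latter had the lowest detection (32.5% of all probes) and the lowest 75th percentile signal (30.4) of the 35 arrays. The former had 37.9% and 86.6. The part of array quality in these values was not tested. The gap between these 2 arrays and the lowest of the others was 3.34 for this probe. Of 18996 tested probes 871 were lowest on these 2 arrays, and 29, which do not include Col16a1, lay at least 4 log2 units below every other array. By limma the first probe differed by -1.71 ± 0.89 between BPA25+genistein and BPA25 (unadjusted p 0.0621, adjusted p 1), the second by -0.40 ± 0.44.

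**Figure D3:**
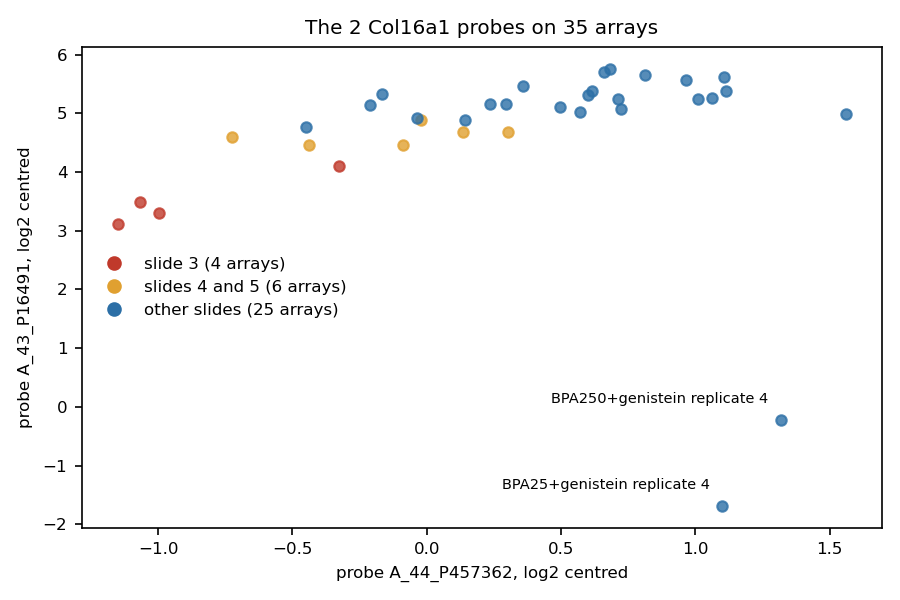
Centred log2 values of the 2 Col16a1 probes on 35 arrays, 1 point per array coloured by slide. Replicate 4 of both genistein groups falls to -1.68 and -0.22 on the vertical axis (A_43_P16491) while lying at 1.10 and 1.32 on the horizontal axis (A_44_P457362).

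No collagen probe passed an adjusted p of 0.05 in any comparison. Values were fitted with limma over all 18996 tested probes and 35 arrays, with Benjamini-Hochberg adjustment, so that collagens were judged against the whole array. A simulation of BPA25 against control on these 18996 probes recovered 24% of changes of 1 log2 unit and 88% of changes of 2. Its noise was drawn independently for each array, without the slide differences of the real arrays. The median 95% interval of a collagen difference, without adjustment, reached 0.99 to either side. An observed difference smaller than about that size thus did not reach an unadjusted p of 0.05 in a typical member. Larger differences could also fail after adjustment: Col11a1, at -1.65 between BPA250+I3C and BPA250, had an adjusted p of 0.776 by limma.

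Slide 3 held 1 array each of control, BPA25, BPA250 and BPA25+genistein and none of the other 3 groups, so it was balanced in some comparisons and not in others. Counts and medians are therefore also given without slide 3, with the share of all tested probes that was higher. Prenatal BPA alone came first. For BPA25 minus control, 0 of 35 collagen probes passed (background 0%) and 0 had an unadjusted p below 0.05 (background 1.97%). In sign, 24 were higher and 11 lower (background 53.1% higher), with a median difference of 0.15 against 0.02 over all tested probes. Without slide 3, 18 were higher (all probes 47.5%), with a median of 0.07. The smallest unadjusted p was 0.0889, for Col8a1, a short-chain collagen: it gave -2.57, -1.23, -2.61, -2.18 and -2.56 in control and -1.79, -1.33, -2.25, -1.32 and -1.10 in BPA25, and was detected on 2 of 5 and 5 of 5 arrays. Its difference was 0.67 ± 0.38, and the groups overlapped. For BPA250 minus control, 0 of 35 passed (background 0%), and 0 had an unadjusted p below 0.05 (background 0.963%). There, 9 were higher and 26 lower (background 42.2% higher), with a median of -0.12 against -0.03. Without slide 3, 8 were higher (all probes 45.9%), with a median of -0.15. For BPA250 minus BPA25, 0 of 35 passed (background 0%) and 0 had an unadjusted p below 0.05 (background 1.67%). Only 5 were higher and 30 lower (background 43.3% higher), with a median of -0.20 against -0.04. Without slide 3, 9 were higher (all probes 50.8%), with a median of -0.13. These 3 comparisons share groups, so their signs are not independent.

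The question of the dietary groups is whether genistein or I3C shifts the gland's expression beside the same BPA dose. For BPA25+genistein minus BPA25, 0 of 35 passed (background 0.00526%, 1 probe for Myoz2) and 0 had an unadjusted p below 0.05 (background 4.8%). Of the 35, 8 were higher and 27 lower (background 53% higher), with a median of -0.19 against 0.03. Without slide 3, 15 were higher (all probes 56.1%), with a median of -0.09. The type VI and multiplexin probes were all lower, 3 of 3 each, with medians of -0.30 and -0.28, and of -0.24 and -0.09 without slide 3. For BPA250+genistein minus BPA250, 0 of 35 passed (background 0%), 0 had an unadjusted p below 0.05 (background 4.16%), and 18 were higher and 17 lower (background 57.5% higher), with a median of 0.00 against 0.06. Only BPA250 had a slide 3 array there, and without it 14 were higher (all probes 39.5%), with a median of -0.19 against -0.12. The 4 type IV probes were all higher with it, with a median of 0.35. Without it 3 of 4 were higher, with a median of 0.06, and Col4a2 turned to -0.22 ± 0.33.

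For BPA25+I3C minus BPA25, 0 of 35 passed (background 0.0105%, 1 probe each for Myoz2 and Tnni1) and 0 had an unadjusted p below 0.05 (background 4.31%). Of the 35, 17 were higher and 18 lower (background 64% higher), with a median of -0.04 against 0.12. Only BPA25 had a slide 3 array, and without it 7 were higher (all probes 46.1%), with a median of -0.26 against -0.03. For BPA250+I3C minus BPA250, 0 of 35 passed (background 0%) and 1 had an unadjusted p below 0.05 (background 4.17%). That was the brightest probe of Col11a1, a minor chain of cartilage fibrils that also occurs in activated stroma, at -1.65 ± 0.63 (limma, unadjusted p 0.0128, adjusted p 0.776). The gene's other probes failed the filter and were not tested. On slide 1, which held an array of each, the difference of the brightest probe was -0.58. Of the 35, 23 were higher and 12 lower (background 68.9% higher), with a median of 0.15 against 0.23. Only BPA250 had a slide 3 array, and without it the median turned to -0.18, with 9 higher (all probes 54.8%). With slide as a fixed block it was -0.09, with 11 higher (all probes 62%). The 3 multiplexin probes were higher with a median of 0.60, and of 0.22 without slide 3. Col11a1 was at -1.21 ± 0.58 without slide 3 (limma, adjusted p 1). In none of these 7 comparisons did the 5 arrays of 1 group lie wholly above or below the other's for any collagen probe. Over all tested probes, the first group lay wholly higher for 0.0895% (BPA25 minus control), 0.0684% (BPA250 minus control), 0.126% (BPA250 minus BPA25), 0.174% and 0.258% (genistein at the lower and higher dose) and 0.463% and 0.842% (I3C likewise). It lay wholly lower for 0.153%, 0.232%, 0.079%, 0.116%, 0.179%, 0.253% and 0.253%, in the same order.

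The difference of the 2 genistein effects between doses passed for 0 of 35 (background 0%), with 0 at an unadjusted p below 0.05 (background 1.25%). It was higher at BPA250 for 29 (background 55.5%), with a median of 0.43 against 0.05 and a median interval of 1.41 to either side. Of the 4 groups it sets against each other, BPA250+genistein alone had no slide 3 array. Without slide 3, 18 were higher (all probes 33.7%), with a median of 0.01 against -0.18, and the fit that blocked on slide gave 0.15. The difference of the I3C effects passed for 0 of 35 (background 0%), with 0 at an unadjusted p below 0.05 (background 3.13%). It was higher at BPA250 for 19 (background 59.4%). The F test over all 7 groups passed for 0 of 35 (background 0%), with 0 at an unadjusted p below 0.05 (background 4.05%), and Col8a1 had its smallest p, 0.0551. Signs of single members were not stable: of 168 values (24 genes in 7 comparisons), 66 changed sign under at least 1 other scaling of the arrays.

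**Figure D4:**
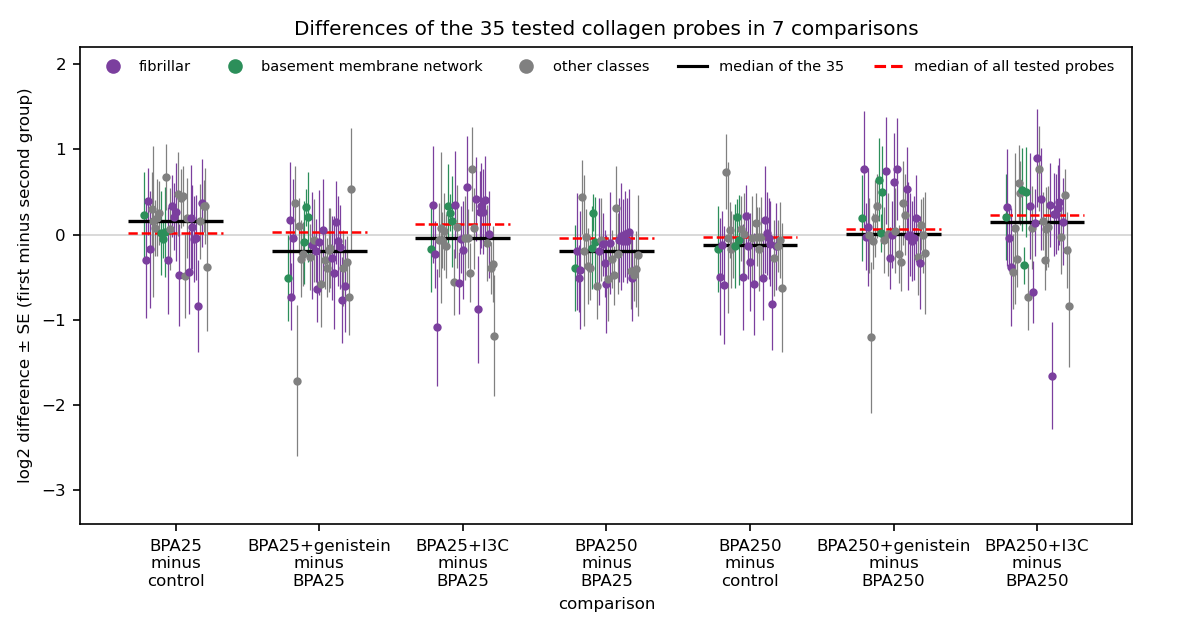
Log2 differences with SE (vertical axis) of the 35 tested collagen probes in 7 comparisons, 1 point per probe, with the median of the 35 (black) and of all tested probes (dashed red). Medians of the 35 lie between -0.20 and 0.15, and the lowest points are Col16a1 at -1.71 and -1.21 in the genistein comparisons and Col11a1 at -1.65.

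Because slide held so much of the variance, the comparisons were also read within slides. With slide as a fixed block no collagen probe passed an adjusted p of 0.05 by limma, but more had an unadjusted p below 0.05: 9 of 35 (25.7%) for BPA25+genistein minus BPA25, where the background was 12.5%. There were 7 (20%) for BPA250 minus BPA25 (background 4.29%), 6 (17.1%) for BPA25+I3C minus BPA25 (background 7.31%), 6 (17.1%) for BPA250+genistein minus BPA250 (background 18.1%), and 5 (14.3%) for BPA25 minus control (background 5.08%). BPA250+I3C minus BPA250 had 2 (5.71%, background 6.73%) and BPA250 minus control 0 (background 2.84%). In this fit, values lost to outlier flags were set to their group's mean. Other ways of treating slide gave other counts. With slide as a random block there were 9 for BPA25+genistein minus BPA25 (background 13.3%) and 4 for BPA250 minus BPA25 (background 4.6%), but 2 for BPA25 minus control (background 6.1%) and 1 each for BPA25+I3C minus BPA25 (background 8.59%) and BPA250+genistein minus BPA250 (background 16.2%). Without slide 3 there were 2 of 35, or 5.71%, for BPA25+genistein minus BPA25 (background 11.3%), 1, or 2.86%, for BPA250 minus BPA25 (background 3.97%), and 2 each for BPA25+I3C minus BPA25 (background 8.36%) and BPA25 minus control (background 5.34%). The higher share among collagens than among all probes was thus not kept without slide 3 in the first 3 of these. That fit also had no slide block, so the 2 changes cannot be told apart. BPA250+I3C minus BPA250 had 4 (11.4%, background 7.39%) with the random block and 2 (5.71%, background 3.66%) without slide 3. BPA250 minus control had 1 (2.86%, background 2.79%) and 0 (background 1.7%). BPA250+genistein minus BPA250 had 3 (8.57%, background 13.2%) without slide 3.

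The members at the top of those blocked fits recurred, and 4 of the comparisons share the BPA25 arrays. Col15a1 differed by 0.49 ± 0.18 between BPA25 and control, by -0.53 ± 0.18 between BPA250 and BPA25, by -0.72 ± 0.19 between BPA25+genistein and BPA25, and by -0.50 ± 0.20 between BPA25+I3C and BPA25. Its adjusted p values were 0.944, 0.998, 0.284 and 0.601 by limma. Col5a1 (A_44_P196079) differed by -0.71 ± 0.17 (adjusted p 0.284) and Col6a2 by -0.96 ± 0.26 (adjusted p 0.284) between BPA25+genistein and BPA25. Col1a2 was contradictory there: its saturated probe A_43_P12783 was at 0.94 ± 0.44 and its other probe A_44_P458851 at -0.79 ± 0.23. In replicate 4 of BPA25+genistein, A_43_P12783 gave 10.5, the highest of that group. A_44_P458851 was lost to an outlier flag on that array and set to the group's mean, so the 2 probes do not rest on the same measured arrays. Col11a1 was, between BPA250+I3C and BPA250, at -1.63 ± 0.41 (adjusted p 0.329).

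Pairs of arrays on 1 slide were also set against each other. Between BPA25+genistein and BPA25, 31 of 34 collagen probes were lower on slide 3 (all probes 61.1%) and 12 of 33 on slide 7 (all probes 39.9%), with medians of the probe differences of -0.80 and 0.18. The difference of the arrays' collagen medians, another measure, was -0.79 on slide 3 and -0.94 on slide 7, so the direction on slide 7 depended on the measure. Between BPA250+genistein and BPA250, 26 of 35 were lower on slide 10 (median -0.47, all probes 54.7% lower) and 18 of 35 on slide 5 (median -0.01, all probes 51.9% lower). Between BPA250 and BPA25, 21 of 35, 30 of 35 and 24 of 34 were lower on slides 1, 3 and 7, with medians of -0.30, -0.50 and -0.17, beside 45.0%, 68.1% and 47.7% of all probes. Between BPA25 and control the medians on slides 1, 3, 7 and 9 were -0.02, 0.55, 0.00 and 0.16, from 1 array of each group per slide (all probes -0.01, 0.13, 0.04 and -0.05). BPA250 and control gave -0.51, 0.08 and -0.13 on slides 1, 3 and 7 (all probes 0.07, -0.06 and 0.04). BPA25+I3C and BPA25 gave -0.24 on slide 9 (all probes 0.07), and BPA250+I3C and BPA250 gave -0.05 on slide 1 (all probes -0.02).

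Pairs of collagen chains were then compared over arrays. Of 8 pairs, 5 are chains of 1 collagen type, and Col1a1 with Col3a1, Col1a1 with Col4a1 and Col15a1 with Col18a1 belong to different types. Across all 35 arrays the 8 pairs, each read by its brightest probe, had Pearson's r from 0.77 to 0.96. Every permutation p of r was 1e-05, the smallest that 100000 resamples can give, and the p adjusted over the 8 pairs was also 1e-05. The 4 arrays of slide 3 stood apart from the rest, so these pooled values rest in part on that gap. Without slide 3, Col6a1 with Col6a3 fell to r = 0.34 (permutation test, adjusted p 0.0593), and Col5a1 with Col5a2 to 0.42 (adjusted p 0.0199). Spearman's rho over all arrays was lower than r for the 6 pairs other than Col1a1 with Col1a2 and with Col3a1, from 0.52 to 0.67.

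On deviations from slide means over 34 arrays, Col15a1 with Col18a1 kept r = 0.59 (rho 0.47, permutation p 0.00025, adjusted p 0.000667). Deviations within a slide cancel out, but the permutation treated all 34 as free, so the p-values in this paragraph can be too small. The basement membrane partners Col4a1 and Col4a2, whose shared start region is printed above, kept 0.49 (rho 0.48, permutation p 0.00318, adjusted p 0.00636). Col6a1 with Col6a2 was 0.27 (rho 0.28, permutation p 0.128, adjusted p 0.171), Col5a1 with Col5a2 was 0.14 (rho 0.24, permutation p 0.445, adjusted p 0.509), Col6a1 with Col6a3 was 0.10 (rho 0.12, permutation p 0.587, adjusted p 0.587), and Col1a1 with Col4a1 was 0.34 (rho 0.33, permutation p 0.0521, adjusted p 0.0834). Type I and III chains stayed at 0.88 (Col1a1 with Col1a2) and 0.95 (Col1a1 with Col3a1), but both members of each pair were saturated on most arrays. With the least saturated probe of each gene these fell to 0.26 (adjusted p 0.293) and 0.15 (adjusted p 0.51) by the same permutation test, and Col3a1 has no unsaturated probe.

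**Figure D5:**
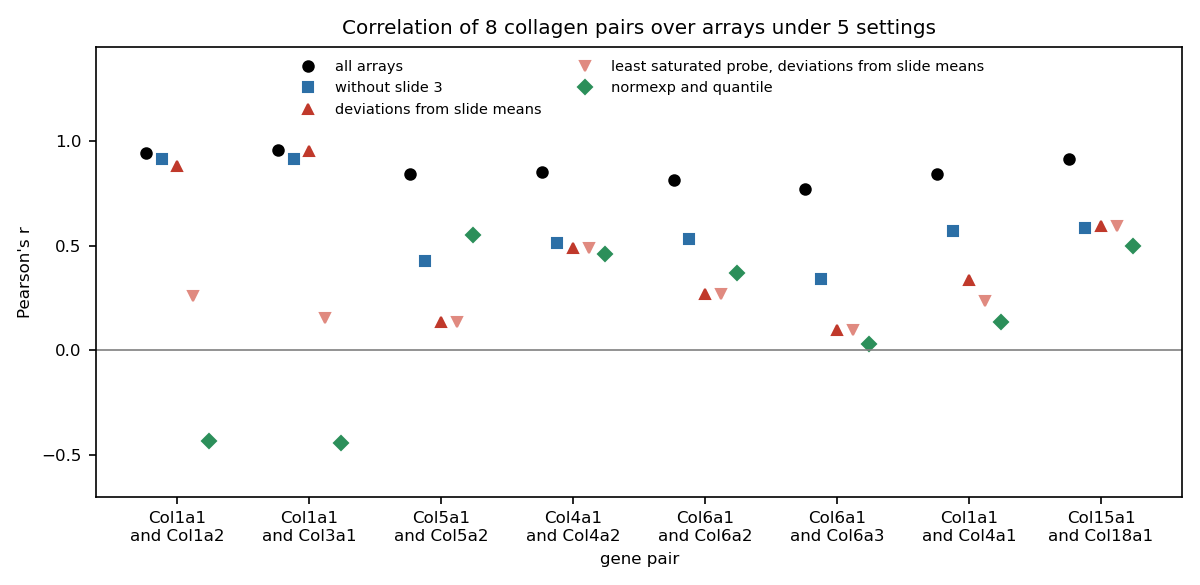
Pearson's r over arrays (vertical axis) for 8 collagen gene pairs under 5 settings. All 8 pairs lie between 0.77 and 0.96 over all arrays; on deviations from slide means Col4a1 with Col4a2 and Col15a1 with Col18a1 stay at 0.49 and 0.59, and the type I and III pairs fall to 0.26 and 0.15 once the least saturated probes are used.

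Without the 2 arrays farthest from the first gene's median, r stayed between 0.63 and 0.94 for the 8 pairs. Across all 595 pairs of the 35 tested collagen probes the median r was 0.46, and 0.15 on deviations from slide means. The 13 pairs of probes for 1 gene had a median of 0.93, and 0.69 on slide deviations, lowest for Col16a1 at -0.19. These are descriptions, since the pairs share arrays, slides and the same centring.

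Genes that make, bind and break down collagen were read as lists. Of 53 tested genes in 6 lists, 0 passed by limma in any of the 7 group comparisons, and unadjusted p values below 0.05 occurred for 2, both lower in BPA250+genistein than in BPA250. In that comparison the background was 4.16%, so 2 of 53 was no excess. The 2 were Fkbp14, a prolyl isomerase of the endoplasmic reticulum that folds procollagen, at -0.85 ± 0.26 (adjusted p 0.981), and P3h4, a partner of the lysyl hydroxylase complex, at -0.79 ± 0.36 (adjusted p 1). Among the 15 tested genes for chain modification and folding, 1 was higher in BPA25+genistein than in BPA25 (background 53%; median -0.34), 3 in BPA250+genistein than in BPA250 (background 57.5%; median -0.21), and 11, or a share near the background of 68.9%, in BPA250+I3C than in BPA250 (median 0.29). Without slide 3 these were 3, 1 and 6, with medians of -0.26, -0.48 and -0.03. Serpinh1, the collagen chaperone HSP47, was at -0.44 ± 0.52 and -0.29 ± 0.52 with genistein and at 0.75 ± 0.52 with I3C at the higher dose. Lox, which cross-links fibres, was at -0.37 ± 0.49 and -0.68 ± 0.49 in the genistein comparisons. Of the 10 fibril partners, such as decorin and lumican, 0 were higher in BPA250 than in BPA25 (background 43.3%; median -0.16), and 4 without slide 3. Of 9 basement membrane partners, the laminins and nidogens among them, 8 were higher in BPA250+genistein than in BPA250 (background 57.5%; median 0.44), and 6 without slide 3 (median 0.11). None of these list counts is a test.

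The markers of cells that make collagen overlapped between groups. The mean centred value of 8 fibroblast markers had group medians from 1.99 (BPA250+genistein) to 2.41 (BPA25), with ranges that overlapped in all 7 groups, and that of 8 adipocyte markers from 5.13 to 5.65. The mean of 10 skeletal muscle markers varied more, with group medians from 4.26 in BPA25 and 3.15 in control to -1.12 in BPA250+I3C and -0.84 in BPA25+genistein. The part of muscle or fat in the collagen values was not tested.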

How the data were processed

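Total RNA of 35 glands was labelled with Cy3 and hybridised, 1 sample per array, to 60-base oligonucleotide arrays. Per the file headers, each deposited scanner file gives the processed signal intensity of every spot after background correction by Agilent Feature Extraction 9.5.3.1 (per the submitters' processing notes), with flags for well above background, saturation and outliers as deposited by the authors. The authors' deposited table gives log2 values whose array medians lie between 6.55 and 6.58. It followed the scanner's mean signals with rank correlations from 0.959 to 0.998; its background correction and normalization are not given in the sources used here.

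The log2 processed signal was centred on each array's 75th percentile. Outlier-flagged spots were left out and 263 probes spotted 10 times were averaged. Group means of 7 groups were fitted over 35 arrays with limma 3.58.1 in R 4.3.3, and p-values were adjusted over 18996 probes. The fit was tested on simulated data. A gene's brightest probe stood for it. Always described were Col1a1, Col1a2, Col3a1, Col5a1, Col5a2, Col4a1, Col4a2, Col6a1, Col6a2, Col6a3, Col15a1, Col18a1, Col17a1, Col14a1 and Col12a1, and per comparison up to 3 probes in each direction with an unadjusted p below 0.05; Col8a1 and Col16a1 were added after their values were seen. The members and gene lists were chosen with earlier results of these data known. Alternatives covered background correction, scaling, filters, slide, scan day, replicate number and leaving arrays out. Probes that saturated were left out, and the least saturated probe was used, as alternatives chosen after seeing the data, as were the class and list values without slide 3. Probe coordinates are those of the files (rn3), and promoter coordinates those of RefSeq's GRCr8 table. The precision is limited by 5 arrays per group.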

Additional observations from a re-analysis of the deposited data

Results flagged for a closer look

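Among 119 sets of up to 5 arrays (17 collagen probes in 7 groups), 34 held a highest or lowest array whose gap to its nearest neighbour passed Dixon's 95% critical value. Chance gives about 1 in 20 for a single set. The sets share arrays, and the 2 Col16a1 probes were included after their values were seen. The count of 34 can therefore not be judged against that rate. Of the 34, 27 lay on slide 3 and all were the lowest of their group. In basement membrane collagens these were Col4a2 at 1.47 (control), 1.84 (BPA25), 1.14 (BPA250) and 0.64 (BPA25+genistein), and Col4a1 at 4.10, 4.60 and 4.35 in the first 3 of these groups. In multiplexins they were Col18a1 at 1.23, 1.88, 1.19 and 0.84 in the same 4 groups, and Col15a1 at 3.40 (control), 4.03 (BPA25) and 2.54 (BPA25+genistein). In type VI they were Col6a1 at 3.53, 4.22 and 3.63 (control, BPA25, BPA250) and Col6a2 at 0.15 and 0.91 (control, BPA25). In fibrillar and associated collagens they were Col5a1 at 3.31 (control) and 3.16 (BPA25+genistein), Col5a2 at 3.93, 4.23 and 3.68 (control, BPA250, BPA25+genistein), the saturated Col3a1 at 7.01 (control), Col14a1 at 0.084 (BPA25) and Col16a1 at 3.12 (control).

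On slide 4, 5 values stood out: Col14a1 at -0.024, Col5a1 at 4.57 and Col16a1 (A_44_P457362) at -0.087 in replicate 2 of BPA25+I3C, and Col5a1 at 4.42 and Col5a2 at 5.44 in replicate 3 of BPA250+I3C. The remaining 2 were Col16a1 (A_43_P16491) at -1.68 in replicate 4 of BPA25+genistein and -0.22 in replicate 4 of BPA250+genistein, where the gene's other probe was the highest of its group. The part of slide in these values was not tested.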

How the results depend on the processing

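The count of collagen probes called was 0 in all 10 tests under every alternative run, 1 array left out included. No collagen median moved by more than the spread between arrays, but its sign was not fixed: leaving out 1 array gave medians from -0.19 to 0.38 for BPA25 minus control and from -0.43 to 0.18 for BPA25+genistein minus BPA25. The Col11a1 probe A_44_P385697, the gene's only probe that passed the filter, stayed lower in BPA250+I3C than in BPA250 in every alternative run. Counts over all tested probes moved more. With array weights they were 158 (BPA25 minus control), 2 (BPA250 minus control), 47 (BPA250 minus BPA25), 86 and 254 (genistein at the lower and higher dose), 971 (I3C at the lower dose), 8 and 477 (differences of the genistein and I3C effects) and 1146 (F test). Without slide 3 they were 4 (BPA250 minus BPA25), 26 (genistein, lower dose), 10 (I3C, lower dose) and 31 (F test). With slide as a random block they were 84 (genistein, higher dose), 2 (I3C, higher dose), 3 (difference of I3C effects) and 160 (F test), and with slide as a fixed block 0 (genistein and I3C, lower dose), 1 (difference of I3C effects) and 4 (F test). With scan day as a block they were 8 (I3C, lower dose) and 6 (F test). Genistein at the lower dose gave 0, against 1, with the percentile over detected probes, the authors' table, no filter, detection on all 35 arrays or outlier spots kept. I3C at the lower dose gave 0, against 2, with normexp and quantile normalization, the authors' table, no filter, detection on all 35 arrays or outlier spots kept, and 1 with the percentile over detected probes. That percentile gave 1 for the difference of genistein effects, and the authors' deposited values gave 1 for genistein at the higher dose. The F test gave 1 with normexp and quantile, 2 with median centring and 1 with 1 probe per gene, against 0.

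Same-numbered replicates shared some of their deviations: 69 of 105 same-numbered pairs had a correlation over 0.1 (median 0.21), against 144 of 420 other pairs (median -0.02), 22 of 35 arrays correlated best with an array of their own number, and replicate number alone held 51.2% of a collagen probe's variance. Not every same-numbered pair passed 0.1 and no label ties the numbers to a litter or day, so they were not treated as pairs. A fit with a replicate block gave 4 calls for I3C at the lower dose and 1 in the F test, none of them collagens. Leaving out 1 array gave 0 to 1 calls for BPA250 minus BPA25, 0 to 11 for genistein at the lower dose (11 without replicate 2 of BPA25+genistein), 0 to 26 for I3C at the lower dose and 0 to 76 in the F test (26 and 76 without replicate 4 of BPA25+I3C).

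Pair correlations depended on slide and saturation. Col6a1 with Col6a3 was 0.34 without slide 3 and 0.032 with normexp and quantile, and on slide deviations 0.095. Slide deviations gave 0.14 (Col5a1 with Col5a2), 0.27 (Col6a1 with Col6a2) and 0.34 (Col1a1 with Col4a1). The least saturated probes, which differ for Col1a1 and Col1a2 alone, gave 0.24 for Col1a1 with Col4a1 and 0.26 and 0.15 for Col1a1 with Col1a2 and Col3a1 on slide deviations. With normexp and quantile these turned to -0.43 and -0.44, and Col1a1 with Col4a1 was 0.14. The cause was not tested.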
